A study of Mus musculus with 30 samples.

Results

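HSC-like cells are the cells of a single-cell library of mouse bone marrow progenitors whose RNA carried several genes of haematopoietic stem cells (HSCs). They were selected on measured values. A cell counted as HSC-like when at least 3 of the 7 genes Hlf, Mecom, Mycn, Ltb, Ly6a, Ifitm1 and Procr had at least 1 UMI (unique molecular identifier, 1 captured RNA molecule), when Pf4 had fewer than 2 UMIs, Car1 and Elane fewer than 5 each and Dntt 0, and when the B cell genes Cd79a, Vpreb1, Vpreb3, Igll1 and Ebf1 together had fewer than 5 UMIs per 10000. Of 24396 cells with at most 10% mitochondrial UMIs, 2328 met the rule (9.54%). The negative genes kept out 781 further cells that had at least 3 of the 7 positive genes.

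The cells came from 10x Chromium libraries of sorted Lin-; c-Kit+ (LK) bone marrow, a mixture of stem cells and of lymphoid, myeloid, erythroid and megakaryocyte progenitors. There were 3 mice with the genotype Mettl3 fl/fl (WT) and 3 with Mx1-Cre; Mettl3 fl/fl (Mettl3KO), all taken 3 weeks after treatment with pIpC. The same study sequenced bulk RNA of HSCs sorted as Lin-;Sca1+;c-Kit+;CD150+;CD48-, again from 3 WT and 3 Mettl3KO mice at 3 weeks, and these libraries serve below as samples that the selection did not use. Mx1-Cre is switched on by interferon, which pIpC induces, in blood cells and also in other interferon-responsive tissues, and the WT group as labelled carries no Cre.

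METTL3 catalyses the step by which a nuclear enzyme complex places N6-methyladenosine (m6A) on messenger RNA, where reader proteins of the YTH family bind it and alter splicing, decay or translation. HSCs are rare cells that maintain themselves and give rise to every blood lineage. On the way to committed progenitors they pass through multipotent states, in which receptors such as FLT3 and lineage genes appear before a lineage is fixed. HLF and MECOM are transcription factors of HSCs, PROCR is a surface receptor of HSCs, and Ly6a encodes the SCA-1 antigen.

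The WT libraries held 184, 147 and 174 HSC-like cells and the Mettl3KO libraries 878, 310 and 635. Their UMIs summed to 718126 to 5613919 per library, against 26209549 to 43124129 for the other LK cells. Median UMIs per HSC-like cell were 4874.5, 5076 and 3428 in WT and 5786.5, 6581 and 5342 in Mettl3KO, so WT 3 was the shallowest. Between 7 and 30 cell barcodes were shared by each of the 15 pairs of libraries, and 47 HSC-like cells carried such a barcode. Scrublet marked 248 cells as doublets (1.02%), of which 6 were HSC-like. WT 3 also stood apart by neutrophil RNA. The 7 neutrophil genes summed to 88518 CPM (UMIs per 1000000 UMIs) in its other LK cells, against 4398 and 7912 CPM in WT 2 and WT 1. Sums over a list are such unscaled values, whereas the CPM of single genes below are scaled between libraries by TMM. In HSC-like cells the sum was 21495 CPM in WT 3, against 3353 and 188 CPM in WT 1 and WT 2 and 81 to 1409 CPM in Mettl3KO.

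The label was checked against 24 HSC genes outside the gate, and 22 of them had a higher CPM in HSC-like than in other LK cells of all 6 libraries. The exceptions were Slamf1, the gene of the HSC antigen CD150, and Tal1, a transcription factor that erythroid and megakaryocyte cells also use. The 10 genes with the largest mean ratio outside the gate, among those at 50 CPM or more in every library, were Gcnt2, Myct1, Rgs1, Gimap5, Meis1, Gimap1, Gimap6, Krt18, Angpt1 and Ctla2a. Their mean log2 ratios to other LK cells ran from 3.11 for Gcnt2 to 2.55 for Ctla2a. Meis1, a homeobox cofactor of HSCs, stood 2.80 log2 units above other LK cells on average, and 2.2 to 3.46 in single libraries. Angpt1, the angiopoietin ligand that HSCs express, stood 2.57 units above. These ratios describe cells chosen by related genes and carry no test. Of the markers of other cells, none of 18 erythroid, 17 granulocyte and monocyte, 8 B cell or 7 macrophage genes was higher than in other LK cells in all 6 libraries. The gate had itself removed cells by Pf4, Car1, Elane, Dntt and the B cell genes. Low values of those lineages in the members were thus in part selected. Of other lists, 5 of 18 megakaryocyte and 3 of 14 lymphoid priming genes were higher in all 6 libraries. The lymphoid priming genes summed to 896.8 to 1037 CPM in the WT members, against 526.1 to 603.5 CPM in other WT LK cells. In Mettl3KO the order was opposite, at 631.0 to 665.1 CPM against 703.8 to 844.9 CPM. The megakaryocyte genes summed to 616.5 to 704.6 CPM in the WT members, against 399.1 to 645.4 CPM in other WT LK cells, and the granulocyte and monocyte genes to 2973 to 3607 CPM, against 12064 to 13346 CPM. The 8 T and NK cell genes summed to 15.5 to 32.0 CPM in the WT members and 11.9 to 13.1 CPM in other WT LK cells. The B cell gene Ms4a1, the T cell gene Cd3g, the macrophage gene Cd5l, the stromal gene Col1a1, the erythroid gene Slc4a1 and the megakaryocyte gene Gp6 had no UMI in any HSC-like cell. Each was the only such gene of its list, so these zeros do not show that a lineage was absent. In the WT members the erythroid genes summed to 1017 to 1629 CPM and the 8 B cell genes to 34.8 to 52.9 CPM. Flt3, which marks multipotent progenitors and is low in HSCs, had a UMI in 21.1% to 22.3% of the WT members. Cd48, whose protein the HSC sort excluded, had one in 28.7% to 40.8%, Cd34 in 70.1% to 83.7% and Mpo in 44.3% to 65.3%. Slamf1, whose protein the sort required, had one in 3.26% to 4.76%. The label therefore does not set HSCs apart from multipotent progenitors.

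The 7 positive gate genes did not carry the same weight in the 2 genotypes. Hlf summed to 196, 199 and 245 CPM in WT HSC-like cells and to 48.5, 51.8 and 46.0 CPM in Mettl3KO. All Mettl3KO values lay below all WT values, although the gate rewarded Hlf in both. Mycn, a MYC family transcription factor, showed the opposite order, with 83.9, 82.5 and 83.5 CPM in the WT and 190, 153 and 190 CPM in Mettl3KO. Ltb, the membrane lymphotoxin ligand, went from 149, 173 and 242 CPM in WT to 384, 350 and 398 CPM in Mettl3KO. Ly6a, which interferon induces, measured 109, 122 and 141 CPM in the WT and 186, 191 and 236 CPM in Mettl3KO. The groups were thus separate for each of these genes. Mecom was 182, 185 and 239 CPM in the WT and 175, 149 and 164 CPM in Mettl3KO, a narrow separation. Ifitm1, another interferon-inducible gene, and Procr overlapped between the genotypes. These levels were used by the selection and are given without a test.

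**Figure D1:**
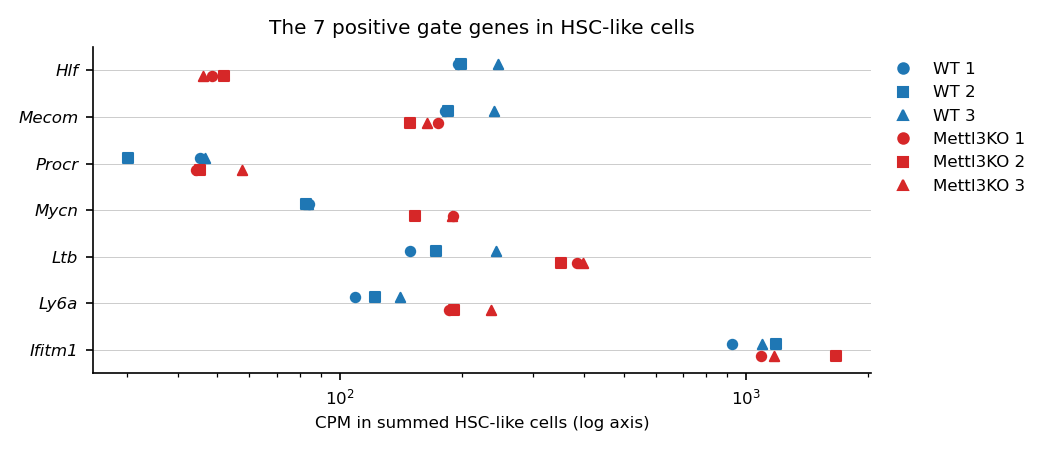
CPM of the 7 positive gate genes in the summed HSC-like cells of each library (log axis); each symbol is 1 library, blue for WT and red for Mettl3KO. Hlf lies at 196 to 245 CPM in the WT and 46.0 to 51.8 CPM in Mettl3KO, while Mycn, Ltb and Ly6a lie higher in Mettl3KO.

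Hlf lies on chromosome 11 from 90336536 to 90390895 on the minus strand of GRCm38. Cells were thinned to 3000 UMIs so that depth was equal. Shallower cells were left out here and in the thinned shares below. These were 55 WT and 19 Mettl3KO members, 52 of them in WT 3. The share of members with a Hlf UMI was then 47.5% to 56.6% in the 3 WT libraries and 12.2% to 16.5% in the Mettl3KO libraries. In other LK cells the thinned share was at most 2.52%. Hlf was itself a gate gene, so this gap to the members was in part selected. In the sorted HSCs, which were isolated by surface antigens and not by Hlf RNA, the counts gave 431, 491 and 362 CPM in the WT and 133, 106 and 102 CPM in Mettl3KO. There Hlf fell with a log2 fold change of -1.91 ± 0.22 (SE, adjusted p = 2.81e-05 by edgeR), with all 3 Mettl3KO libraries below all WT libraries. The other 6 positive genes did not pass the test in sorted HSCs. Mycn gave 0.82 (adjusted p = 0.0787) and Ltb 0.94 (adjusted p = 0.0868), both in the direction seen in the HSC-like cells. Mecom gave 0.12 (adjusted p = 0.889). Of the negative gate genes, Car1, a carbonic anhydrase of erythroid progenitors, and Dntt, the terminal transferase of lymphoid progenitors, fell in sorted HSCs by 4.52 and by 3.27 on the log2 scale (adjusted p = 3.96e-04 and 6.95e-04).

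HSC-like cells took a larger share of LK cells in every Mettl3KO library than in any WT library. They were 4.10%, 4.18% and 4.0% of the WT cells and 20.7%, 10.5% and 13% of the Mettl3KO cells. The WT libraries agreed closely, while Mettl3KO 1 was nearly double Mettl3KO 2. The 95% exact binomial intervals, which cover counting error only, ran from 3.44% to 4.90% over the WT libraries and from 9.44% to 22.0% over the Mettl3KO libraries. The means were 4.10% ± 0.091 and 14.8% ± 5.31 (SD, n = 3 each), a difference of 10.7 percentage points (two-sided exact permutation p = 0.1, the smallest that 3 against 3 allows). A share is relative to the other LK cells, and more HSC-like cells cannot be told apart here from fewer cells of other kinds.

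How large the difference was depended on the gene list of the gate. With at least 4 of the 7 genes the shares were 2.15% ± 0.11 and 8.58% ± 3.37, and on thinned cells they were 2.53% ± 0.26 and 9.09% ± 3.30 (SD, n = 3 each). Without Hlf they were 2.97% ± 0.13 and 14.2% ± 5.19. Without the interferon-inducible pair Ly6a and Ifitm1 they were 1.61% ± 0.10 and 5.95% ± 2.45. In each of these gates the genotypes did not overlap. A gate without Mycn, Ltb and Ly6a, on at least 3 of Hlf, Mecom, Ifitm1 and Procr, gave 2.19%, 1.88% and 2.02% in WT and 5.64%, 2.95% and 3.43% in Mettl3KO. When only members with a Hlf UMI were counted, the shares were 2.81%, 2.87% and 2.69% in WT and 4.77%, 2.78% and 2.71% in Mettl3KO. The genotypes then overlapped, with a difference of 0.63 percentage points (two-sided exact permutation p = 0.8). The last 2 gates were chosen after the Hlf values were seen. At the edge of the rule, 47.7% of the WT members and 41.7% of the Mettl3KO members had exactly 3 positive genes, and 443 WT and 914 Mettl3KO cells just outside had exactly 2.

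**Figure D2:**
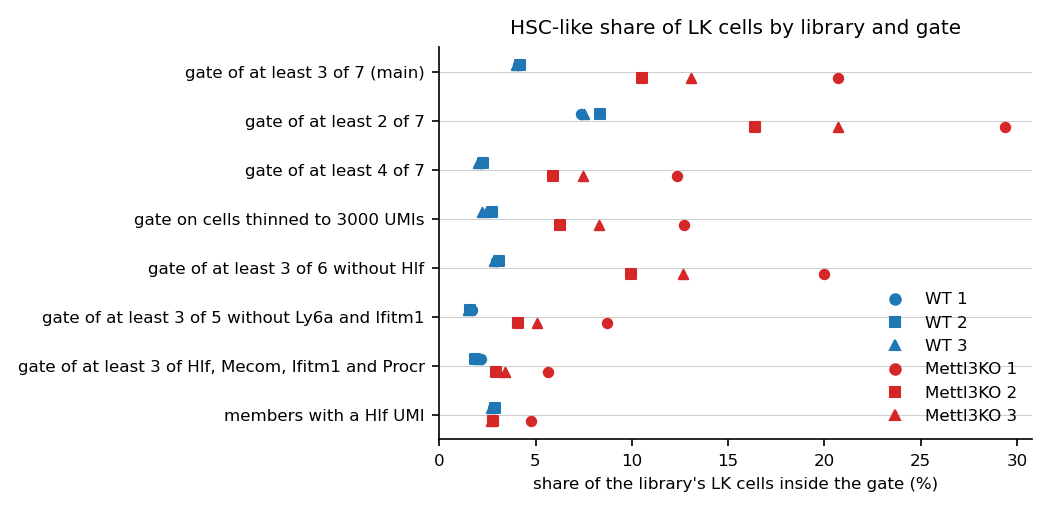
Share of each library's LK cells (%) inside the gate and its alternatives; each symbol is 1 library, blue for WT and red for Mettl3KO. Under the main gate WT lies at 4.0% to 4.18% and Mettl3KO at 10.5% to 20.7%, and only the lowest row, members with a Hlf UMI, shows overlap.

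The targeted gene was checked first. Mettl3 (chromosome 14, 52294841 to 52305128, minus strand) measured 28.3, 32.5 and 28.7 CPM in WT HSC-like cells and 10.1, 10.3 and 10.5 CPM in Mettl3KO. It fell with a log2 fold change of -1.53 ± 0.21 (adjusted p = 1.13e-04). Which exons the deletion removes is not given in the labels, so UMIs do not measure the deletion itself. In other LK cells it fell by 0.69 on the log2 scale. The difference of -0.77 ± 0.21 between the 2 populations passed the test (adjusted p = 0.0183), but not without WT 2, without Mettl3KO 3, with at least 4 of 7 gate genes (adjusted p = 0.0777) or without Ly6a and Ifitm1 in the gate (adjusted p = 0.447).

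UMIs of the members were summed per library and tested with edgeR's quasi-likelihood test. The 16 gate genes and the mitochondrial (mt-) genes were left out of the tests in LK cells. Genes with an adjusted p under 0.05 are called changed. Of 8942 genes tested, 1835 changed (20.5%), with 1008 higher (11.3%) and 827 lower (9.25%) in Mettl3KO. Of these, 604 changed at least 2-fold. The calls compare the members as selected, and the gate drew on different genes in the 2 genotypes. Hlf had a UMI in 67.2% to 68.7% of the WT and 20.8% to 26.5% of the Mettl3KO members. For Mycn these shares were 27.6% to 34.0% and 55.8% to 62.5%. Whether the 2 sets hold the same kinds of cells was not tested. In other LK cells, 2281 of 12812 genes changed (17.8%), with 11% higher and 6.76% lower. These shares over all genes are the background for the counts of listed genes below.

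Rises and falls were ranked among called genes with a mean of at least 20 CPM and no overlap between the WT and Mettl3KO values. The 12 largest rises were Nupr1, Serpina3f, Ccl5, Gp5, Tcf15, Dyrk3, Serpina3g, Fam212a, Gimap9, Socs2, Slfn2 and B3gnt8. Nupr1, a stress-induced chromatin protein, went from 5.66, 13.9 and 10.9 CPM in WT to 67.7, 98.5 and 150 CPM in Mettl3KO. Its log2 fold change was 3.4 ± 0.36 (adjusted p = 1.33e-05). Serpina3g, a protease inhibitor of the serpin family that haematopoietic progenitors express, went from 122, 190 and 120 CPM to 700, 674 and 814 CPM, a log2 fold change of 2.34 ± 0.16 (adjusted p = 1.55e-07). Its neighbour Serpina3f rose by 3.05 ± 0.42 log2 units. The pair lies on chromosome 12 at 104236245 to 104241939 and 104214544 to 104221129, and reads of such near copies may be split between them. The share of members with a Serpina3g UMI was higher as well. Such a share also depends on the level per cell, and the 2 were not told apart. After thinning to 3000 UMIs, 26.2% to 37.4% of the WT members and 78.3% to 79.1% of the Mettl3KO members had a Serpina3g UMI. Among members that had a Hlf UMI the shares were 24.7% to 42.6% and 72.1% to 78.9%. In other LK cells they were 6.23% to 7.66% and 19.5% to 27.6%.

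Gp5, a subunit of the platelet receptor for von Willebrand factor, measured 9.43, 16.3 and 8.21 CPM in the WT and 73.8, 57.8 and 85.1 CPM in Mettl3KO (log2 fold change of 2.68 ± 0.24, adjusted p = 2.75e-06). Tcf15, a transcription factor tied to HSC quiescence, went from 11.3, 6.97 and 10.9 CPM to 59.5, 47.6 and 80.4 CPM. Socs2, a feedback inhibitor of cytokine signalling, rose by 2.23 ± 0.22 log2 units, and Socs3 of the same family by 2.08 ± 0.47. The chemokine gene Ccl5 varied within WT, with 1.89, 6.97 and 24.6 CPM, and lay at 46.6, 77.5 and 87.0 CPM in Mettl3KO. Slfn2, a schlafen family gene needed for quiescence of immune cells, went from 7.54, 8.13 and 10.9 CPM to 46.2, 33.0 and 40.2 CPM.

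Among the 12 largest falls were Klk8, Flt3, Serpinf1, Gm5111, Satb1, Gpr171, Itm2a, Cd69, 1700097N02Rik, 4930519L02Rik and Lst1. Klk8, a kallikrein-related serine protease, went from 69.8, 94.1 and 80.7 CPM in WT to 6.40, 10.3 and 9.42 CPM in Mettl3KO. This was the largest fall among called genes without overlap and with a mean of at least 20 CPM, with a log2 fold change of -3.29 ± 0.20 (adjusted p = 1.15e-07). Flt3 (chromosome 5, 147330741 to 147400489, minus strand), the receptor tyrosine kinase of multipotent and lymphoid progenitors, measured 49.0, 43.0 and 72.5 CPM in the WT and 6.75, 10.3 and 4.71 CPM in Mettl3KO. It fell by 2.96 on the log2 scale (SE 0.26, adjusted p = 2.26e-06). After thinning, a Flt3 UMI was found in 12.2% to 16.4% of the WT members and 1.29% to 3.23% of the Mettl3KO members, against 2.81% to 4.72% in other LK cells of both genotypes. In each Mettl3KO library the share among members was below that of its other LK cells, at 2.29% against 3.17%, 3.23% against 4.72% and 1.29% against 2.81%. Satb1, a chromatin organizer of lymphoid-primed cells, went from 47.1, 40.6 and 43.8 CPM to 8.53, 11.1 and 4.99 CPM. Gpr171, a G protein-coupled receptor, went from 86.7, 120 and 146 CPM to 23.6, 24.8 and 17.5 CPM. Cd69, an early activation antigen, was 155 CPM in WT 3 against 46.2 and 47.6 CPM in WT 1 and WT 2, and 14.1 to 19.7 CPM in Mettl3KO.

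**Figure D3:**
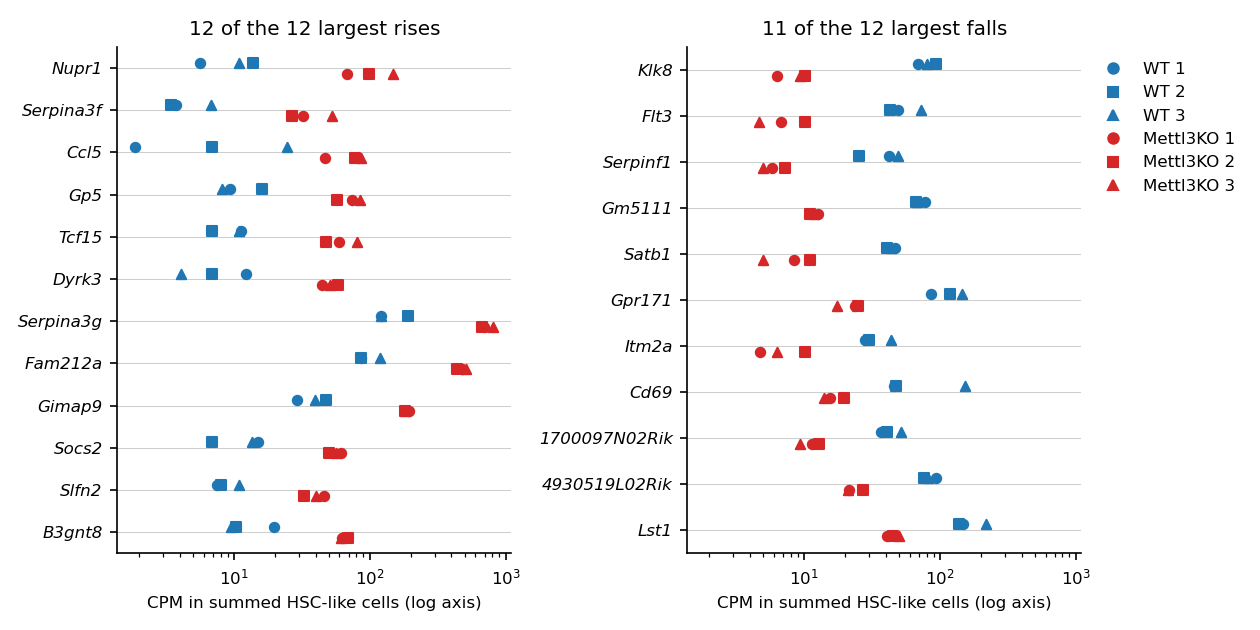
CPM (log axis) of the 12 largest rises, left, and 11 of the 12 largest falls, right, in the summed HSC-like cells; each symbol is 1 library, blue for WT and red for Mettl3KO. In every row the genotypes are separate, which the choice of these genes required; Ccl5 and Cd69 show the widest spread within WT.

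Genes of HSC identity outside the gate did not move as a block. Of 24 listed, 20 were tested, 8 rose and 3 fell, with a median log2 fold change of 0.38 against -0.01 over all genes tested. Those that rose were Mllt3, Slamf1, Esam, Tal1, Ctnnal1, Hoxb5, Erg and Tek. Mllt3, a chromatin reader that sustains HSCs, went from 42.4, 60.4 and 36.9 CPM in WT to 104, 99.8 and 137 CPM in Mettl3KO (log2 fold change of 1.28 ± 0.18, adjusted p = 1.31e-04). Slamf1, the gene of CD150, went from 6.60, 8.13 and 8.21 CPM to 19.7, 28.3 and 26.3 CPM, and Esam, an adhesion molecule of HSCs, rose by 1.05 ± 0.19 log2 units. The calls of Erg and Tek, with log2 fold changes of 0.49 and 1.35, were lost without WT 1 and without WT 2, that of Tek also without WT 3 and that of Erg without Mettl3KO 1. Among the falls, the homeobox gene Hoxa9 went from 128, 152 and 168 CPM to 86.4, 81.8 and 79.8 CPM (-0.84 ± 0.12, adjusted p = 1.48e-04), and Lmo2, a partner of TAL1, fell by 0.56. Meis1, Runx1, Gata2 and Angpt1 did not pass the test, with log2 fold changes of -0.04, 0.11, 0.23 and 0.26. Among the members with a Hlf UMI, 3 of the list rose and 3 fell, with a median of 0.05.

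Of 12 genes tested in the list of sort and surface antigens, 5 rose and 4 fell, with a median of 0.02. Over all genes 11.3% rose and 9.25% fell. Cd34, which multipotent progenitors carry and long-term HSCs of adult mice lack, measured 378, 438 and 397 CPM in the WT and 164, 184 and 135 CPM in Mettl3KO, a fall of 1.33 ± 0.12 log2 units (adjusted p = 2.47e-06). Cd27, a TNF receptor family member of progenitors, fell by 0.84, and Kit, the stem cell factor receptor that the sort required, by 0.54 (adjusted p = 0.0139). Thy1, Slamf1, Cd9 and the integrin genes Itga2b and Itgb3 rose. Ctla2a, a cathepsin inhibitor gene and 1 of the 10 leading genes of these cells, went from 432, 550 and 631 CPM to 159, 180 and 165 CPM and fell by 1.68 ± 0.13 log2 units.

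Of 15 lymphoid priming genes listed, 9 were tested and 8 fell, with none higher and a median log2 fold change of -0.60. They included Flt3, Satb1, Mef2c, Ikzf1, Lsp1, Tcf3 and Notch1. Ikzf1, the lymphoid transcription factor Ikaros, fell by 0.60 ± 0.13 log2 units (adjusted p = 0.00486) and Mef2c by 0.56 ± 0.10 (adjusted p = 0.00151). Without WT 3, 5 of 9 genes of the list fell, and among members with a Hlf UMI 3 of 8. Lck, a T cell kinase and the 1 of 8 T and NK cell genes tested, fell by 1.20, but not beyond the threshold without WT 2 or without WT 3.

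Of 13 granulocyte and monocyte genes tested, 6 fell and 2 rose (median -0.42). Among members with a Hlf UMI, 4 of 12 fell and the median was 0.16. Mpo, the myeloperoxidase of granulocyte precursors, went from 358, 373 and 413 CPM in WT to 125, 141 and 104 CPM in Mettl3KO, a fall of 1.63 ± 0.12 log2 units (adjusted p = 4.74e-07). Nkg7, Ctsg, Cebpa, Lyz2 and Cebpe were the other falls. The share of members with a Mpo UMI after thinning was 45.1% to 49.0% in WT and 19.0% to 26.6% in Mettl3KO. It was 57.1% to 71.8% and 38.2% to 53.5% in other LK cells, so free RNA from those cells could supply Mpo UMIs, and its part in the fall was not tested. Ms4a3, a granulocyte-monocyte progenitor gene, rose from 33.9, 34.8 and 41.0 CPM to 79.8, 105 and 57.1 CPM. Neutrophil granule genes also passed the test, with 6 of 6 lower and a median of -3.93, but their sum ranged from 188 to 21495 CPM within WT and followed WT 3. Without WT 3, 1 gene of the list was called lower, and with DESeq2 also 1.

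Of 10 megakaryocyte genes tested, 5 rose and 1 fell (median 0.62), against 11.3% higher and 9.25% lower over all genes. Selp, the P-selectin of platelets, endothelium and a subset of HSCs, went from 25.5, 17.4 and 19.2 CPM in WT to 94.2, 99.4 and 84.0 CPM in Mettl3KO (log2 fold change of 2.13 ± 0.17, adjusted p = 1.22e-06). F2r, the thrombin receptor, rose by 1.89 ± 0.18, followed by Cd9 and Itga2b. Plek, a platelet signalling protein, fell by 0.56. Cells with 2 or more UMIs of the platelet factor Pf4 had been removed by the gate. Thinned to equal depth, a Selp UMI was found in 5.44% to 6.08% of the WT and 21.2% to 26.3% of the Mettl3KO members. In sorted HSCs, 2 of 17 megakaryocyte genes tested rose and 0 fell, with a median of -0.01. Over all genes 3.66% rose there.

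Erythroid genes showed 2 rises and 1 fall among 11 tested. Over all genes 11.3% rose and 9.25% fell, so no result about the group is read from these counts. Hbb-bt, an adult beta globin, went from 72.6, 108 and 166 CPM to 206, 404 and 333 CPM (log2 fold change of 1.46 ± 0.25). Hbb-bs was 891 CPM in Mettl3KO 2 and 8.21 to 19.8 CPM in the other 5 libraries, and its log2 fold change was -0.07 without Mettl3KO 2. Its call was also lost without any 1 of the WT libraries. Car2, a carbonic anhydrase, fell by 0.57, but not beyond the threshold without WT 3, Mettl3KO 1 or Mettl3KO 2. Macrophage genes were low, at 8.14 to 17.4 CPM summed over 7 genes in WT members and 29.1 to 59.3 CPM in Mettl3KO members. Both tested members of that list, Cd68 and C1qa, rose, with C1qa at 0 to 2.83 CPM in the WT and 6.0 to 11.7 CPM in Mettl3KO. C1qa was not called without WT 2.

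Among genes of the m6A machinery, Rbm15, which guides the writer complex to RNA, went from 22.6, 18.6 and 32.8 CPM in WT to 70.0, 55.7 and 59.6 CPM in Mettl3KO (log2 fold change of 1.36 ± 0.19, adjusted p = 1.33e-04). It was the 1 of 8 tested writer genes that rose, a share near that of all genes (11.3%), and Mettl3 was the 1 that fell. Of 9 tested readers and erasers, 3 rose (Ythdf2, Ythdc1 and Ythdf1) and 1, the demethylase gene Fto, fell. Ythdf2, the reader that directs RNA to decay, went from 86.7, 67.4 and 95.8 CPM to 212, 198 and 203 CPM, a rise of 1.30 ± 0.12 log2 units (adjusted p = 3.48e-06). Ythdc1, the nuclear reader, went from 123, 127 and 127 CPM to 236, 191 and 235 CPM.

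Of 14 p53 targets tested, 4 rose and none fell (median 0.48). Phlda3, an inhibitor of AKT signalling, went from 3.77, 6.97 and 9.58 CPM in WT to 24.5, 27.0 and 26.9 CPM in Mettl3KO (log2 fold change of 2.00 ± 0.29). Cdkn1a, the p21 cell cycle inhibitor, rose by 1.57 ± 0.24, and the pro-apoptotic Bax from 94.3, 101 and 101 CPM to 218, 227 and 210 CPM. In the BCL2 family the survival gene Bcl2 fell by 1.04 ± 0.15, and Bid by 0.71. Heat shock genes rose in 4 of 7 tested, with changes of less than 1 log2 unit. Of 12 genes of the unfolded protein and integrated stress responses, 2 rose, near the share over all genes (11.3%). They were Calr and Hspa5, which rose by 0.38 and 0.39. Both of these calls were lost without WT 1 and without Mettl3KO 2.

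Of 29 interferon-stimulated genes tested, 9 rose and 4 fell (median 0.20), against 11.3% higher and 9.25% lower over all genes. The falls were thus near the share over all genes, and 1 of 24 fell among members with a Hlf UMI, where 9 rose. Irgm1, an interferon-inducible GTPase, went from 20.7, 27.9 and 41.0 CPM in WT to 75.2, 84.0 and 96.2 CPM in Mettl3KO (log2 fold change of 1.55 ± 0.19). Isg15, a ubiquitin-like modifier, rose by 1.28 ± 0.22 and Rtp4 by 0.98 ± 0.13. Ifih1, the RNA sensor MDA5, fell by 1.22 ± 0.27 and Ifi44 by 1.14 ± 0.27. Of 14 genes of MHC class I and the immunoproteasome, 4 rose, H2-Q7 among them at 138, 177 and 201 CPM in the WT and 429, 347 and 451 CPM in Mettl3KO. Both genotypes had received pIpC. Of the 6 Gimap genes tested, GTPases of lymphocytes encoded side by side on chromosome 6 between 48647234 and 48770851, 4 rose. Gimap9 rose most, from 29.2, 47.6 and 39.7 CPM to 194, 183 and 181 CPM. The non-coding gene Gm5111 lies at 48589445 to 48590584 of the same chromosome and fell from 78.3, 67.4 and 68.4 CPM to 12.8, 11.1 and 11.9 CPM.

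Of 30 MYC targets, 6 rose and 2 fell (median 0.21). Apex1, a DNA repair endonuclease, rose by 1.01 ± 0.10 and Ncl, the nucleolar protein nucleolin, by 0.82 ± 0.10, whereas Myc itself fell by 0.49 (adjusted p = 0.0282). Of 81 cytosolic ribosomal protein genes tested, 16 rose and 1, Rpl22l1, fell (median 0.18). Of 74 oxidative phosphorylation genes, 7 rose and 4 fell (median 0.02). G1/S genes showed 3 rises and 2 falls among 28, and G2/M genes 3 rises and 4 falls among 24. Over all genes 11.3% rose and 9.25% fell, so the oxidative phosphorylation and G1/S counts were below or near the background, and no result about those groups is read from them or from the G2/M count. Fen1, a replication nuclease, rose from 73.5, 90.6 and 87.6 CPM to 167, 182 and 152 CPM. Nusap1, a spindle protein, fell from 171, 107 and 111 CPM to 64.7, 74.1 and 58.2 CPM.

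The share of members with at least 2 UMIs of the G2/M genes, counted on cells thinned to 3000 UMIs, was 39.8%, 32.7% and 43.4% in WT and 42.2%, 51.9% and 34.9% in Mettl3KO. The genotypes overlapped. The means were 38.6% ± 5.49 and 43.0% ± 8.55 (SD, n = 3 each), a difference of 4.38 percentage points (two-sided exact permutation p = 0.5). The unthinned means were 47.2% and 55.8%, and thinning left out 55 WT and 19 Mettl3KO members, 52 of them in WT 3. In other LK cells the share was 71.6% to 78.7% over the 6 libraries. Free RNA can add UMIs to these shares, and no cycling state is read from them.

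Immediate early genes, which respond within minutes to stimulation and to cell handling, fell in 6 of 13 tested (median -1.07). Ier2 was 157, 159 and 369 CPM in the WT and 107, 102 and 114 CPM in Mettl3KO. The list summed to 1042, 2226 and 5450 CPM in the WT and to 1296, 1605 and 1360 CPM in Mettl3KO, so WT 3 was again the highest and WT 1 lay below all Mettl3KO libraries. Without WT 3, 3 genes of the list were called lower and the median was -0.13, and with DESeq2 1 gene was called.

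The effect in HSC-like cells was then compared with that in the other LK cells of the same libraries by testing the difference of the 2 log2 fold changes. It passed the test for 1795 of 12710 genes (14.1%), with 7.86% more positive and 6.26% more negative in HSC-like cells. The balance turned with the scaling, from 999 positive and 796 negative to 837 and 917 with relative log expression and to 562 and 631 with DESeq2. Flt3 was 1 of them. It measured 10.3 CPM in the WT and 10.6 CPM in Mettl3KO other LK cells on average, a log2 fold change of 0.04 (adjusted p = 0.917), and the difference was -2.88 ± 0.23 (adjusted p = 5.39e-08). Satb1, Gpr171 and Cd69 were likewise near 0 in other LK cells, with differences of -2.44, -2.38 and -2.40. Of 13 lymphoid priming genes tested for a difference, 7 were more negative in HSC-like cells and 1 more positive, while 6 of 14 rose in other LK cells. By the rule, all cells with a Dntt UMI were among the other LK cells. They made up a mean of 36.7% of the other LK cells in Mettl3KO and 11.1% in WT. The lymphoid counts therefore do not separate an effect within cells from this selection, whose part was not tested. Slfn2 was more positive in HSC-like cells, with a difference of 2.39 ± 0.31. Dyrk3, a kinase gene of late erythroid cells, gave a difference of 2.29 ± 0.32. Serpina3g, Selp, Socs2, Nupr1 and Cdkn1a rose in both populations, and their differences, between -0.81 and 0.37, did not pass the test.

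**Figure D4:**
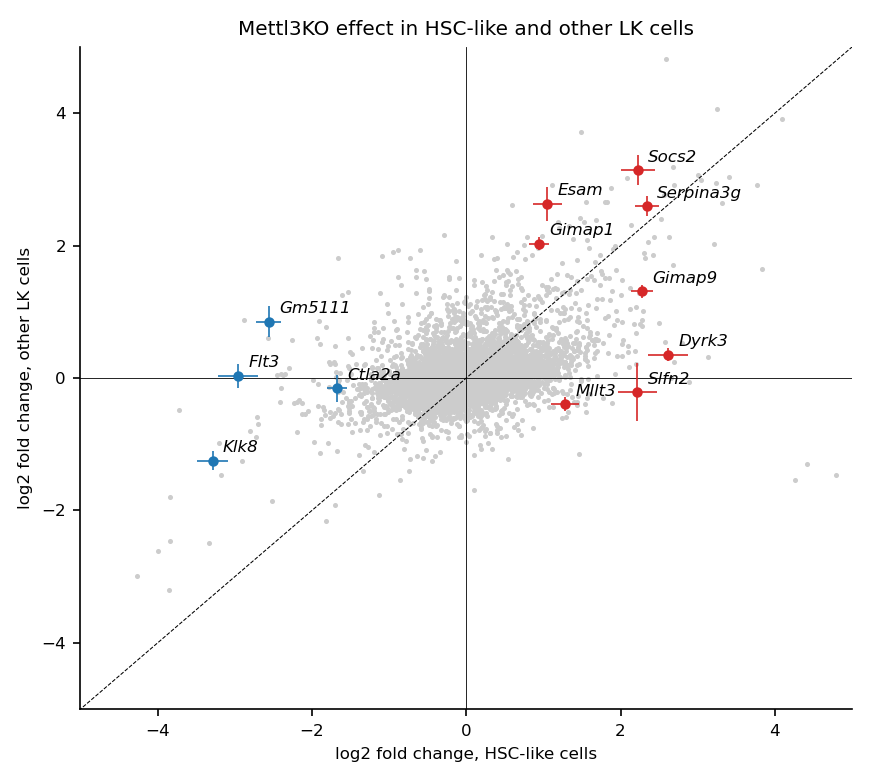
Log2 fold change, Mettl3KO against WT, of 8940 genes in HSC-like cells (x axis) and other LK cells (y axis); named genes carry bars of 1 SE, the dashed line marks equal effects, and 4 genes lie outside the axes. Flt3 and Ctla2a lie near 0 on the y axis, Klk8 falls in both, and Serpina3g lies near the line.

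Erythroid genes fell in 16 of 18 tested in other LK cells, with a median of -1.11, and 9 of 18 had a more positive effect in HSC-like cells (2 with DESeq2, 2 to 10 over the alternatives). By the rule, all cells with 5 or more Car1 UMIs were among the other LK cells. A Car1 UMI was found in 30.0% to 37.0% of the other LK cells in WT and 10.1% to 14.8% in Mettl3KO. The part of this selection in the erythroid differences was not tested. The haemoglobin genes Hba-a2, Hba-a1 and Hbb-bs gave the largest positive differences, but their levels in HSC-like cells rested on Mettl3KO 2. Hba-a2 was 487 CPM there and 2.67 to 12.2 CPM in the other 5 libraries, and its difference went from 5.01 to 2.05 without Mettl3KO 2 and to 0.58 with the gate on thinned cells, where it was not called. Of 83 ribosomal protein genes, 72 were more positive in HSC-like cells and 1 more negative, with a median difference of 0.29 against 0.02 over all genes. That count was 61 with relative log expression scaling and 58 to 70 over all alternatives. Of 8 Gimap genes, all rose in other LK cells (median 1.70), and Gimap1, Gimap5 and Gimap6, whose WT levels were already higher in HSC-like cells, had more negative differences, with Gimap9 the 1 more positive. Interferon-stimulated genes rose in 15 of 34 in other LK cells, and 7 of 34 differences were negative and 1 positive. Over all genes, 11% rose and 6.76% fell in other LK cells. Of all differences tested, 7.86% were called positive and 6.26% negative.

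The HSC-like result was finally set beside the sorted HSCs. In bulk, 954 of 15523 genes changed (6.15%), with 3.66% higher and 2.49% lower in Mettl3KO. Of 8669 genes tested in both, 374 were called higher in both, which is 38.8% of the 963 called higher in HSC-like cells and 78.2% of the 478 called higher in sorted HSCs. For lower genes the number was 162, which is 20.3% of 798 and 63.5% of 255. Over the genes tested in both, sorted HSCs called 5.51% higher and 2.94% lower. No gene was called in opposite directions. Whether mice gave cells to both assays is not stated in the labels, so the assays are not taken as independent animals.

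Several named genes changed in the same direction in sorted HSCs. Klk8 fell there by 4.40 log2 units (adjusted p = 1.25e-05), Flt3 by 3.77 (adjusted p = 4.60e-05), Serpinf1 by 3.16, Satb1 by 2.64 and Ctla2a by 2.29. Serpina3g rose by 1.77 (adjusted p = 3.23e-05), Fam212a by 1.95, Gimap9 by 2.04, Selp by 2.41 and B3gnt8, a glycosyltransferase gene, by 2.83. Rbm15 and Ythdf2 rose by 1.82 and 1.32, Cdkn1a by 2.76, and Cd34 fell by 1.26. Not all carried over. Mpo gave 0.32 (adjusted p = 0.907) in sorted HSCs against the fall of 1.63 in HSC-like cells. Slamf1, whose protein the sort required, gave 1.16 (adjusted p = 0.187) and the transcription inhibitor Id1, which rose by 3.13 in HSC-like cells, gave 0.32 (adjusted p = 0.944).

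**Figure D5:**
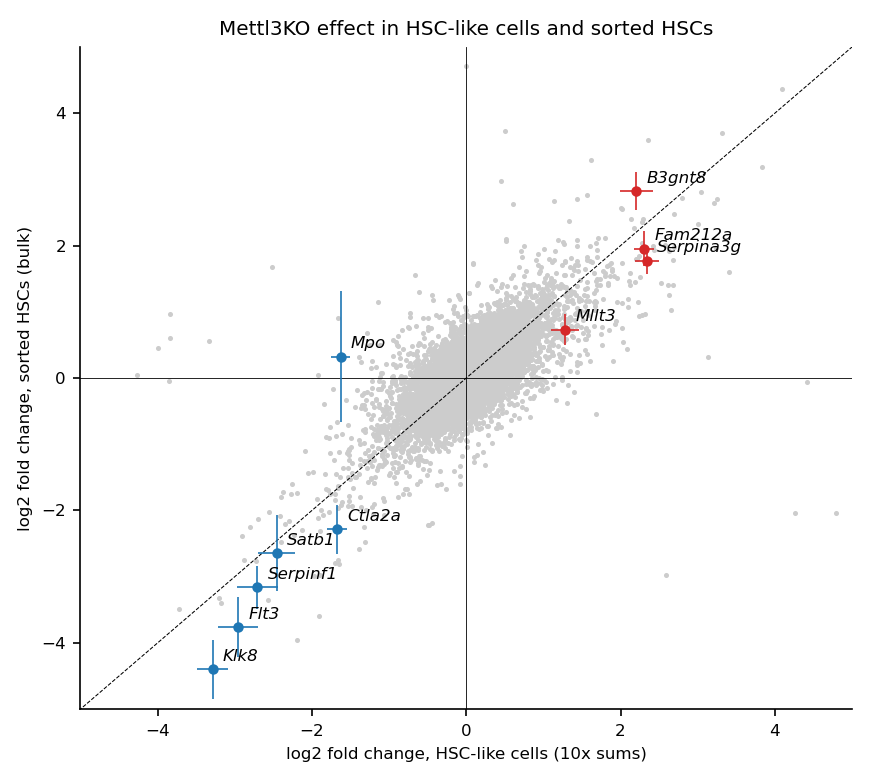
Log2 fold change, Mettl3KO against WT, of 8669 genes in HSC-like cells (x axis) and sorted HSCs (y axis); named genes carry bars of 1 SE, the dashed line marks equal effects, and 3 genes lie outside the axes. Klk8, Flt3 and Serpina3g lie far from 0 on both axes, whereas Mpo lies at -1.63 on the x axis and 0.32 on the y axis.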

How the data were processed

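Counts of UMIs were deposited for 27933 genes in 24693 cells of the 10x libraries, each cell named by its library. The deposited bulk table is named FPKM but held whole-number counts, and was tested as counts, leaving out 27 rows named as dates. The submitters' processing notes name Cell Ranger 2.2, Bowtie and TopHat, without versions for the last 2, and 2 builds (mm10, GRCh37). How reads were assigned to genes is not given in the sources used here.

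Cells over 10% mitochondrial UMIs (297) were removed, and the gate was applied. UMIs were summed per library over HSC-like and over other LK cells. Each set of sums was tested with edgeR 4.0.16 in R 4.3.3 (glmQLFit and glmQLFTest, filterByExpr, TMM), 3 against 3, with Benjamini-Hochberg adjustment over all genes tested. CPM of single genes are TMM-scaled, while sums over lists and ratios to other LK cells are unscaled. The difference between populations came from all 12 sums, with library as a block. Bulk HSCs were tested within the 24 bulk libraries (8 groups). Shares were compared by exact permutation in scipy 1.17.1, two-sided. Doublets were called with scrublet in scanpy 1.11.5 and kept. Coordinates are from GENCODE vM21 (GRCm38), 1-based. Functions were tested on simulated data.

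Named were Mettl3, the gate genes, the 12 largest rises and falls (at least 20 CPM, no overlap), up to 3 genes per list of smallest adjusted p, the 6 largest differences in each direction, the 10 leading genes and the HSC identity list. Others, such as Thy1, Kit and Myc, are members of a list that passed the test and were chosen after their values were seen. A few genes that the rule names are not reported here. The members and 33 gene lists were chosen with earlier results of these data known. Replicates are different mice per the labels. Alternatives were DESeq2 1.42.0, other scaling, filters and gates, equal depth, and leaving out each library.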

Additional observations from a re-analysis of the deposited data

Results flagged for a closer look

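The effect of Mettl3KO differed between HSC-like and other LK cells, by the test of the difference itself, for 1795 genes. Shares of other LK cells with Car1 or Dntt UMIs differed by genotype too, and the part of this cell mix was not tested. The 12 named here had the largest differences in log2 fold change (HSC-like minus other LK) among those with a mean of at least 20 CPM in HSC-like cells. The more positive ones were Hba-a2 (5.01), Hba-a1 (4.56), Hbb-bs (4.2), Hbb-bt (2.69), Slfn2 (2.39) and Ccl5 (2.31). The more negative ones were Myl10 (-3.39), Gm5111 (-3.27), Flt3 (-2.88), Ltf (-2.83), Satb1 (-2.44) and Cd69 (-2.40).

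For Hba-a2, Hba-a1 and Hbb-bs, the HSC-like cells of Mettl3KO 2 stood at 487, 504 and 891 CPM, against at most 12.2, 20 and 19.8 CPM in the other 5 libraries. Without that library the differences were 2.05, 1.99 and 1.91, and with the gate on thinned cells 0.58, 0.15 and 0.64, where none was called. None of the 3 was called with DESeq2 (adjusted p = 0.173, 0.181 and 0.106) or without WT 2, and Hba-a2 and Hba-a1 were also not called without WT 1 or with at least 2 of 7 gate genes. For the neutrophil gene Ltf, WT 3 stood at 349 CPM in HSC-like cells, against 34.9 and 2.32 CPM in the other WT libraries. Myl10, a myosin light chain gene, was 658 CPM in WT 1 against 174 and 198 CPM in WT 2 and WT 3, and its fall within HSC-like cells (-1.67) was not called without WT 1 (-0.75, adjusted p = 0.165), with DESeq2 (adjusted p = 0.184), with at least 2 of 7 gate genes (adjusted p = 0.0531) or in the 2 gates added after seeing the data (adjusted p = 0.0976 and 0.0841), while its difference was called without WT 1. The Ccl5 difference was not called without WT 1 or without WT 2 (adjusted p = 0.132 and 0.0874), with DESeq2 (adjusted p = 0.123) or with at least 2 of 7 gate genes, where it was 0.49 (adjusted p = 0.312).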

How the results depend on the processing

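The 1835 genes called in HSC-like cells became 1198 with DESeq2, 1151 with at least 4 of 7 gate genes, 844 without Ly6a and Ifitm1 in the gate, 698 in members with a Hlf UMI and 721 with at least 3 of Hlf, Mecom, Ifitm1 and Procr. The last 2 gates were added after seeing the data. They test fewer genes and cells, and 676 and 689 of their calls were among the 1835. Leaving out 1 library gave 1228 to 1706 in HSC-like cells, 1361 to 2025 of 2281 in other LK cells (the lowest without WT 2, then 1420 without Mettl3KO 3), and 1228 to 1731 of 1795 for the difference. The difference had 1193 calls with DESeq2 and 967 without Ly6a and Ifitm1 in the gate. In sorted HSCs the 954 calls became 452 to 1273 without 1 library (452 without Mettl3KO 3, 504 without Mettl3KO 2, 556 without WT 2, 623 without WT 1), 521 with the 6 HSC libraries alone and 1797 with DESeq2. DESeq2, run without the filter on low counts, moved the median of all genes from 0.02 to -0.25 for the difference and from -0.01 to -0.09 in HSC-like cells. The cause was not tested.

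The replicate numbers did not pair the samples, since deviations of same-numbered HSC-like libraries correlated at 0.058, -0.263 and -0.256. With the replicate number as a block, the pairing left 1637 calls in HSC-like cells and 1523 in other LK cells. In sorted HSCs the block was fitted on the 6 HSC libraries alone and left 33 calls, against 521 there without it.

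The mean share of HSC-like cells was higher in Mettl3KO under all 15 alternatives, by 0.63 to 14.4 percentage points and by 7.69 to 12.8 without 1 library. The smallest difference was that of members with a Hlf UMI, where the genotypes overlapped. There Mettl3KO 2 and Mettl3KO 3 lay at 2.78% and 2.71%, within the WT range of 2.69% to 2.87%, and Mettl3KO 1 at 4.77%. The difference in the share of members with G2/M UMIs turned direction under some alternatives. These were the gate of at least 3 of Hlf, Mecom, Ifitm1 and Procr (-0.97), leaving out Mettl3KO 2 (-0.080) and counting at least 1 UMI (-3.41). Without 1 library, this difference ran from -0.080 to 8.44. Among named genes, Hbb-bs in HSC-like cells turned without Mettl3KO 2 (-0.066; -0.066 to 5.03 without 1 library) and without Ly6a and Ifitm1 in the gate (-0.17), and the Gp5 difference turned under the same gate (-0.053). S100a8 and S100a9 lost their call with DESeq2 and without WT 3 or Mettl3KO 1. Tek, Erg, Top2a, Kif23, Hspa5 and Calr lost theirs without at least 1 library. The WT members, with 147 to 184 cells a library, limit which genes of low level could be tested.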
